A study of Mus musculus with 2 samples.

Results

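The Fc gamma receptors bind the constant part of IgG antibodies, and 5 genes were followed: the activating receptors Fcgr1, Fcgr3 and Fcgr4, the shared signalling subunit Fcer1g, and the inhibitory receptor Fcgr2b. They were chosen by symbol, since the treatment in the series title is an antibody fusion, and are 5 of the 32589 genes in the count tables. The cells came from MC38 tumours (MC38 is a colon carcinoma line of mice) collected on day 19 after inoculation. The control group (Ctrl) and the treated group (BiDT) are 1 library each, and per the labels' protocols each library pooled live CD45+ cells, sorted by flow cytometry, of 5 biological replicates. The labels do not spell out BiDT, and the title refers to a protein that joins an anti-TIM3 antibody to an interferon. The labels name no strain, age, dose or control agent.

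Activating receptors do not signal alone: they assemble with a dimer of the FcR gamma chain, the product of Fcer1g, whose activation motifs recruit the kinase Syk once an immune complex has clustered the receptors. The inhibitory receptor carries its own inhibitory motif and recruits the phosphatase SHIP1, encoded by Inpp5d, so that the balance of the opposed receptors on a phagocyte sets its threshold for antibody-coated targets. In mice Fcgr1 encodes the high-affinity receptor (CD64), Fcgr3 the low-affinity receptor that NK cells also carry (CD16), and Fcgr4 a receptor of myeloid cells. Interferons are known to induce Fcgr1 and Fcgr4 in myeloid cells. Per the labels' protocols, the cells were blocked with an antibody to CD16/32 (clone 93), which binds the products of Fcgr3 and Fcgr2b, before staining and sorting. The values below are mRNA, in both libraries taken from cells treated in that way.

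Promoter sequences of 4 members are given so that the interferon-type and PU.1-type motifs in them can be read beside the values. All 5 symbols matched the RefSeq promoter table, whose build is GRCm38.p6. The count tables were made on GRCm39 per the submitters' processing notes, so the positions hold for GRCm38.p6 alone. In that build Fcgr1 (chr3:96282909-96293969) lies on chromosome 3 and the other members lie on chromosome 1, at chr1:170960558-170976071 for Fcgr2b, chr1:171018926-171029761 for Fcgr4, chr1:171051169-171065915 for Fcgr3 and chr1:171229572-171234349 for Fcer1g. Each window runs from 250 bases before to 50 bases after the annotated start, 5′ to 3′ on the strand of the gene, and capitals mark a motif match. The windows are chr3:96293920-96294219 (minus strand) for Fcgr1, chr1:171018676-171018975 (plus strand) for Fcgr4, chr1:171059354-171059653 (minus strand) for Fcgr3 and chr1:170976022-170976321 (minus strand) for Fcgr2b.
Fcgr1: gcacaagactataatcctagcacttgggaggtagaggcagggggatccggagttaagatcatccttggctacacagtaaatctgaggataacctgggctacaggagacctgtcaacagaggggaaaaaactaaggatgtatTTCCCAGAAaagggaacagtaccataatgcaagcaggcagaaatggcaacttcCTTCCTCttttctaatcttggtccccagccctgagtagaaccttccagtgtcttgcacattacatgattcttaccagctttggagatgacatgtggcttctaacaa
Fcgr4: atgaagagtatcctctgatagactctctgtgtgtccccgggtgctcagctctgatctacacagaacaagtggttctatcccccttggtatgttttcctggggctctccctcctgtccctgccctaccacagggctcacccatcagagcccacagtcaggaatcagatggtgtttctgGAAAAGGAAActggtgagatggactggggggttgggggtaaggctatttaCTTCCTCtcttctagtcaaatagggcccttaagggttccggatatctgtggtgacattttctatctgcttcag
Fcgr3: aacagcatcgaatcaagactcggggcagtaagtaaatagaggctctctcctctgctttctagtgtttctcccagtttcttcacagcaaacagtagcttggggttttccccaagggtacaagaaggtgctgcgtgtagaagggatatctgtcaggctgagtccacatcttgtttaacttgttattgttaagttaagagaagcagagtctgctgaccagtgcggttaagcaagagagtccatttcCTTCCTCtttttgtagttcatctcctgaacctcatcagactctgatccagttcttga
Fcgr2b: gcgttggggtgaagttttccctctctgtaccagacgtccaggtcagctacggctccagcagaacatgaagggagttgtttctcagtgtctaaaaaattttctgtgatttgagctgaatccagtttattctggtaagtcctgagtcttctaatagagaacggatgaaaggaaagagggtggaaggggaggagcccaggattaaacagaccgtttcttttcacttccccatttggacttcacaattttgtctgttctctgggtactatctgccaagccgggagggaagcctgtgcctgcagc

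The Fcgr1 window held a GAS-type motif (TTCNNNGAA, the same on both strands) as TTCCCAGAA, which began 109 bases before the start. The Fcgr4 window held an ISRE-type motif (GAAA, any 2 bases, GAAA, or TTTC, any 2 bases, TTTC on the other strand) as GAAAAGGAAA, which began 73 bases before the start. The PU.1-type motif (GAGGAAG, or CTTCCTC on the other strand), named for the myeloid transcription factor PU.1, was found as CTTCCTC in the windows of Fcgr1, Fcgr4 and Fcgr3, where it began 56, 23 and 7 bases before the start. A second annotated start of Fcgr3 places the same match 16 bases before it. Both of these starts lie inside the span given for Fcgr3, and no window lay at the outer 5′ end of that span. The Fcgr2b and Fcer1g windows held none of these letters. Of all 32851 windows in the table, 8.30% held the GAS-type motif, 3.44% the ISRE-type motif and 13.6% the PU.1-type motif. A match is a description of the letters and not a measured binding site.

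Levels (CPM) are counts of unique molecular identifiers (UMIs, each marking 1 captured transcript) per 1000000 UMIs of a cell group. Cell groups are clusters named from marker genes, written with "-like", and the members took no part in clustering or naming. A gene is called higher or lower when its level differed at least 1.5-fold between the libraries, and intervals are 95% intervals that cover counting error only. Because each group is 1 library of pooled animals, there is no test between groups and no replicate check. The Ctrl library kept 30867 cells with a median of 4104 UMIs, and the BiDT library 32850 cells with a median of 2573 UMIs. Malat1, a nuclear transcript whose share grows with damaged cells, made up 0.410% of Ctrl UMIs and 0.828% of BiDT UMIs. The libraries share 713 barcodes, of which 617 are carried by kept cells of both libraries. Cells of a fibroblast or tumour-like cluster made up 5.71% of Ctrl and 5.36% of BiDT cells despite the CD45 sort. They served, with CD8 T-like cells, as the reference for free RNA, since both should lack most Fc receptors. Free RNA was not itself measured, so a level of free RNA below means the level in these reference cells.

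Most UMIs of the receptors lay in macrophage or monocyte-like cells. These cells, 68.2% of the kept cells in Ctrl and 51.4% in BiDT, held 93.4% of the Fcgr1 UMIs of all kept cells in Ctrl and 91.1% in BiDT. They held 93.3% and 89.2% of the Fcgr2b UMIs, 92.9% and 82.2% of those of Fcgr3, and 90.7% and 84.2% of those of Fcgr4. Fcer1g was the most widely spread, with 86.6% of its UMIs in these cells in Ctrl and 69.2% in BiDT. NK-like cells held 4.12% of the Fcer1g UMIs in Ctrl and 18.2% in BiDT, and over the same libraries they went from 3.90% to 15.9% of the cells.

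Among the 10 macrophage or monocyte-like clusters, 7 were matched best by markers of C1q macrophages and are called macrophage-like. The monocyte-like cells are clusters A10 and A15, the first with 1664 of the 1730 Ctrl cells and the second with 1899 of the 2753 BiDT cells. Igkc, an antibody chain of B cells, was among the leading genes of A10, and the interferon-induced Slfn4 and Ifit2 led A15. Cluster A1, led by Thbs1 and Msr1, was matched best by the general phagocyte markers alone and has no subset. It held 4108 Ctrl and 2756 BiDT cells and is given by its number.

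The order of the cell groups differed between the genes. Fcgr1 was highest in cluster A1 of Ctrl at 388 CPM, followed by monocyte-like cells at 178 CPM and macrophage-like cells at 160.1 CPM. In BiDT monocyte-like cells ranked first at 525 CPM, before A1 at 469 CPM and macrophage-like cells at 448 CPM. Conventional type 2 dendritic (cDC2-like) cells came next in Ctrl at 123 CPM, then dendritic cells of no assigned subset at 92.9 CPM and neutrophil-like cells at 58.7 CPM, with no overlap of intervals along that order. In BiDT these 3 groups stood at 186, 195 and 172 CPM, and neighbouring intervals overlapped. Fcgr3 and Fcgr4 were instead highest in neutrophil-like cells. Fcgr3 reached 936 CPM there in Ctrl and 848 CPM in BiDT, against 845 and 638 CPM in A1. Macrophage-like cells followed at 663 and 502 CPM, and monocyte-like cells at 511 and 393 CPM. Fcgr4 reached 304 and 280.5 CPM in neutrophil-like cells, against 183 and 177 CPM in A1.

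Fcgr2b was highest in A1 in both libraries, at 1232 and 947 CPM, before macrophage-like cells at 1022 and 739.5 CPM. Monocyte-like cells had less, at 461 and 399 CPM, and their intervals overlapped those of neutrophil-like cells in Ctrl and of cDC2-like cells in BiDT. Fcer1g was the member with a high level in a lymphoid group. In Ctrl it stood at 2038 CPM in A1, 1857 CPM in monocyte-like, 1739 CPM in neutrophil-like, 1586 CPM in NK-like and 1557 CPM in macrophage-like cells, the last 2 with overlapping intervals. In BiDT it stood at 1471 CPM in A1, 1414 CPM in macrophage-like and 1282 CPM in monocyte-like cells, and neutrophil-like and NK-like cells were even, at 1056 and 1052 CPM. Levels are compared within a gene, since UMIs counted near the end of transcripts give no level per length between genes.

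**Figure D1:**
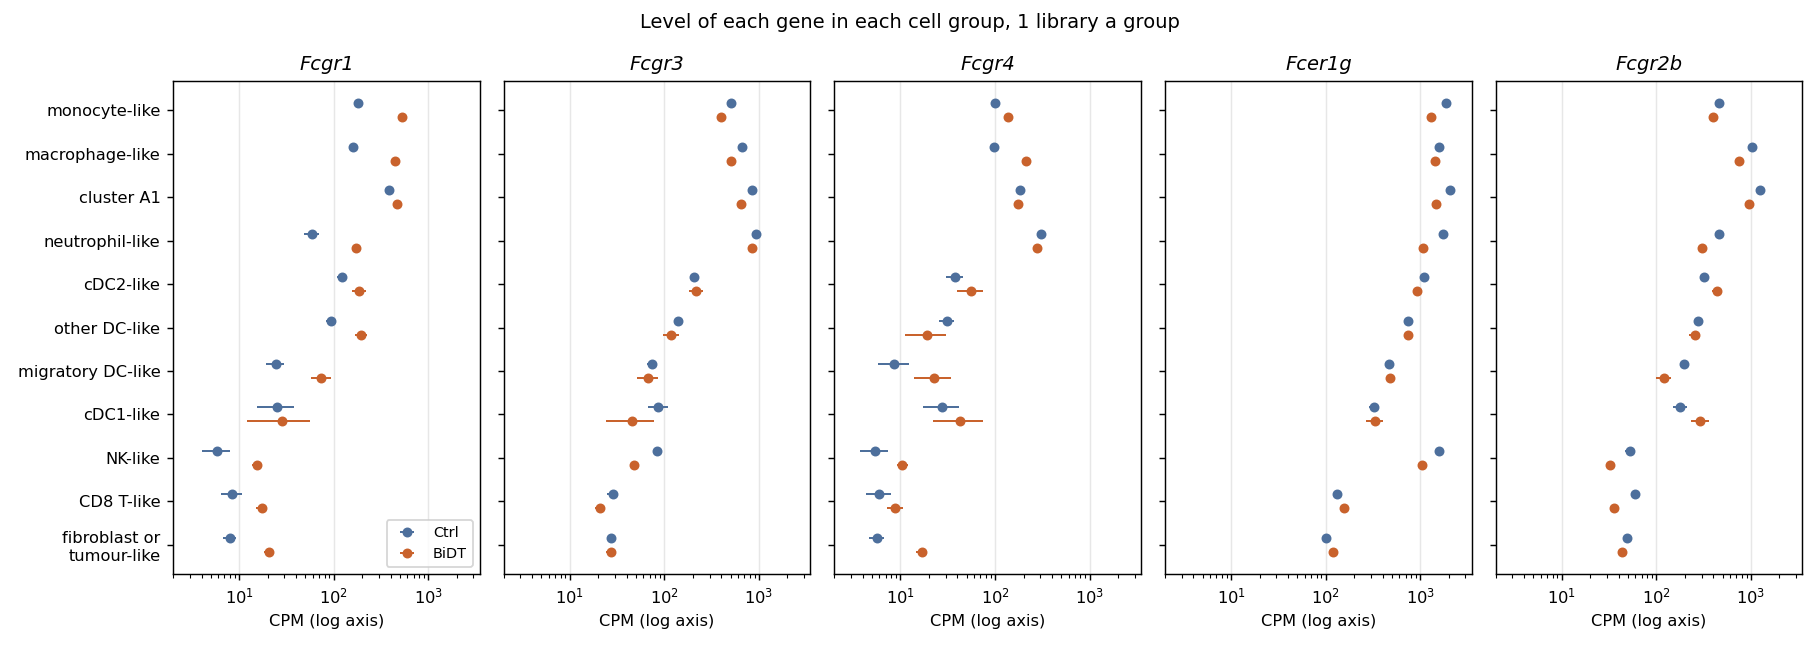
Level of each gene (CPM, log axis) in 11 groups of cells, with Ctrl in blue and BiDT in orange; bars are 95% counting intervals, and each point is 1 library. Fcgr1 lies further right in BiDT than in Ctrl in most groups, while Fcer1g in NK-like cells stands at 1586 and 1052 CPM, beside 1739 and 1056 CPM in neutrophil-like cells.

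In macrophage or monocyte-like cells the activating receptors divided: Fcgr1 and Fcgr4 were higher in BiDT, and Fcgr3 was not. Fcgr1 went from 193 CPM in Ctrl (191 to 196) to 465 CPM in BiDT (459 to 470), a log2 ratio of 1.27 (1.24 to 1.29). Fcgr4 went from 109 CPM (107 to 111) to 195 CPM (192 to 199), a log2 ratio of 0.84 (0.81 to 0.88). Fcgr3 stood at 681 CPM in Ctrl and 505 CPM in BiDT, for a log2 ratio of -0.43 (-0.45 to -0.41) that stays within 1.5-fold. Thus 2 of 5 members were at least 1.5-fold higher and 0 at least 1.5-fold lower, where 18.2% of the 14795 genes with at least 50 UMIs in these cells were higher and 10.5% lower.

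The shared subunit and the inhibitory receptor stood lower in BiDT by less than 1.5-fold. Fcer1g had 1641 CPM in Ctrl and 1400.4 CPM in BiDT, for a log2 ratio of -0.23 (-0.24 to -0.22). Fcgr2b had 1022 CPM in Ctrl and 714 CPM in BiDT, for a log2 ratio of -0.52 (-0.53 to -0.50). Scaling by trimmed means (TMM), which moves every gene of this class down by 0.19, puts Fcgr2b at -0.70 and Fcgr3 at -0.62, so that 2 members then count as lower, where 16.8% of genes do, and 2 as higher, where 13.1% do. The direction of all 5 members was the same under that scaling.

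Detection per cell showed the same division. After each macrophage or monocyte-like cell was thinned to 1000 UMIs, 15.8% of Ctrl cells (15.3 to 16.3) and 28.9% of BiDT cells (28.2 to 29.6) had a UMI of Fcgr1. The share went from 8.97% to 13.9% for Fcgr4, from 40.5% to 31.1% for Fcgr3, from 71.7% to 63.2% for Fcer1g and from 56.2% to 42.8% for Fcgr2b. Without thinning, the shares were 46.4% and 53.8% for Fcgr1 and 87.1% and 68.6% for Fcgr2b, at a median of 4238 UMIs per Ctrl cell and 2561 per BiDT cell. In fibroblast or tumour-like cells, with medians of 9402 and 4286.5 UMIs, the thinned shares were 0.737% and 2.21% for Fcgr1, 0.624% and 2.04% for Fcgr4, and 5.96% and 4.48% for Fcgr2b. In CD8 T-like cells, with medians of 3105.5 and 2494 UMIs, they were 0.761% and 2.05% for Fcgr1 and 6.34% and 4.27% for Fcgr2b. In fibroblast or tumour-like cells, levels were thus also higher in BiDT, at 7.98 and 20.8 CPM for Fcgr1 and 5.59 and 16.7 CPM for Fcgr4. In CD8 T-like cells they were 8.33 and 17.4 CPM for Fcgr1 and 5.95 and 8.70 CPM for Fcgr4, the last pair within 1.5-fold. All lay far below the levels in phagocytes, and the part of the unlike depths of the reference cells was not tested.

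**Figure D2:**
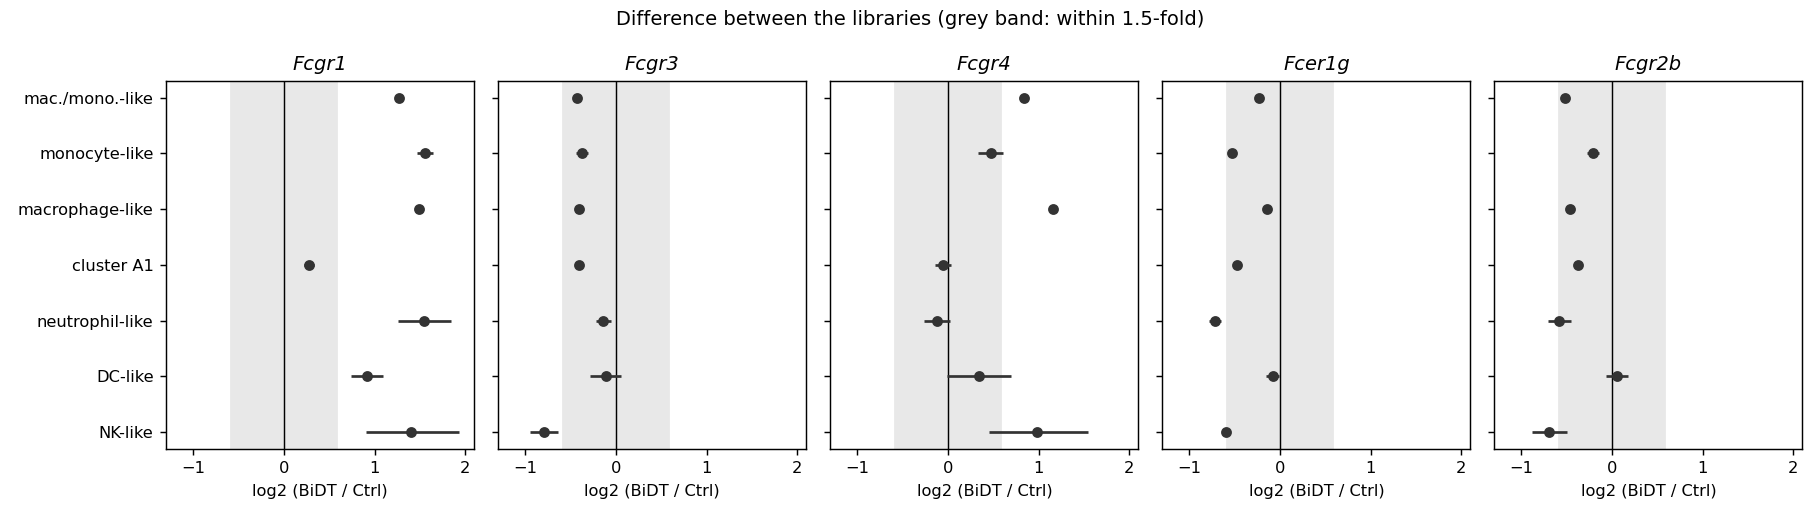
Log2 of the BiDT level over the Ctrl level for each gene in macrophage or monocyte-like cells, their 2 subsets and cluster A1, and neutrophil-like, dendritic (DC)-like and NK-like cells; bars are 95% counting intervals and the grey band is within 1.5-fold. Fcgr1 lies right of 0 in all 7 groups (0.27 to 1.56), and in NK-like cells Fcgr1, Fcgr4 and Fcgr2b lie at the level of free RNA.

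Macrophage-like and monocyte-like cells both had more Fcgr1 in BiDT, and Fcgr4 was past 1.5-fold in macrophage-like cells. Fcgr1 went from 160.1 to 448 CPM in macrophage-like cells, for a log2 ratio of 1.49 (1.46 to 1.52), and from 178 to 525 CPM in monocyte-like cells, for a log2 ratio of 1.56 (1.47 to 1.65). Fcgr4 went from 96.6 to 215 CPM in macrophage-like cells, for a log2 ratio of 1.15 (1.11 to 1.195), and stood at 99.6 and 138 CPM in monocyte-like cells, at 0.47 (0.34 to 0.60). In cluster A1 Fcgr1 had 388 and 469 CPM (0.27, 0.22 to 0.33) and Fcgr4 183 and 177 CPM (-0.05, -0.14 to 0.03). The other 3 members were within 1.5-fold in each of these groups. Fcgr2b, Fcgr3 and Fcer1g had log2 ratios of -0.47, -0.40 and -0.14 in macrophage-like cells, -0.21, -0.38 and -0.53 in monocyte-like cells and -0.38, -0.40 and -0.47 in A1. In macrophage-like cells 21.2% of genes were higher and 10.6% lower, in monocyte-like cells 16.2% and 10.6%, and in A1 6.06% and 5.96%.

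The subset values depended on single clusters. Without A15, of which 96.6% of cells came from BiDT, the monocyte-like values were 0.47 for Fcgr1, 0.11 for Fcgr4 and -0.01 for Fcgr2b. Without the macrophage clusters A2, A3 and A14, described next, the macrophage-like values were 0.71 for Fcgr1 and 0.23 for Fcgr4. The border between the subsets also moved with the clustering. At a Leiden resolution of 2 the monocyte-like values were 0.68 for Fcgr1, -0.01 for Fcgr4 and -0.70 for Fcgr2b, and at a resolution of 0.5 they were 1.60, 0.47 and -0.19.

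The clusters that make up these cells differed between the libraries, and much of the Fcgr1 and Fcgr4 difference moved with them. C1q macrophage clusters A2 and A14 held 20.1% and 8.99% of the Ctrl cells of the class and 1.82% and 0.450% of the BiDT cells. Macrophage cluster A3, led by C1qa, Ccl7 and Ms4a7, held 0.356% of Ctrl and 23.1% of BiDT cells, and monocyte cluster A15 held 0.314% and 11.3%. In BiDT the cells of A3 had the highest levels of Fcgr1 and Fcgr4 of the 10 clusters, 724 and 340.3 CPM, and those of A15 the lowest level of Fcgr2b, 375 CPM. An alternative chosen after the data had been seen left out the 4 clusters of which at least 90% of cells came from 1 library. The class then had log2 ratios of 0.53 for Fcgr1, 0.13 for Fcgr4 and -0.38 for Fcgr2b. No member was then past 1.5-fold, but no share of all genes stands beside that count, so it gives no result about the members. With each cluster weighted alike in both libraries, also chosen after the data had been seen, the log2 ratios were 0.75, 0.47 and -0.33. A difference in the mix of cells and a difference within cells of 1 kind cannot be told apart for clusters found in 1 library.

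Within clusters the direction of Fcgr1 did not vary. Its level was higher in BiDT, with an interval above 0, in 10 of 10 clusters, past 1.5-fold in 7, with log2 ratios from 0.27 in A1 to 1.499 in A14. In A0, the largest cluster and evenly filled (4465 Ctrl and 4220 BiDT cells), Fcgr1 went from 117 to 251 CPM, a log2 ratio of 1.104 (1.01 to 1.201). Fcgr4 was above 0 in 8 of 10 clusters and past 1.5-fold in 6, and its interval held 0 in clusters A1 and A10. Fcgr2b was below 0 in 8 of 10 clusters, Fcgr3 in 8 and Fcer1g in 9, each past 1.5-fold in 1 cluster. Lower levels of these 3 members were thus common to most clusters but small, with median log2 ratios of -0.32, -0.23 and -0.34.

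**Figure D3:**
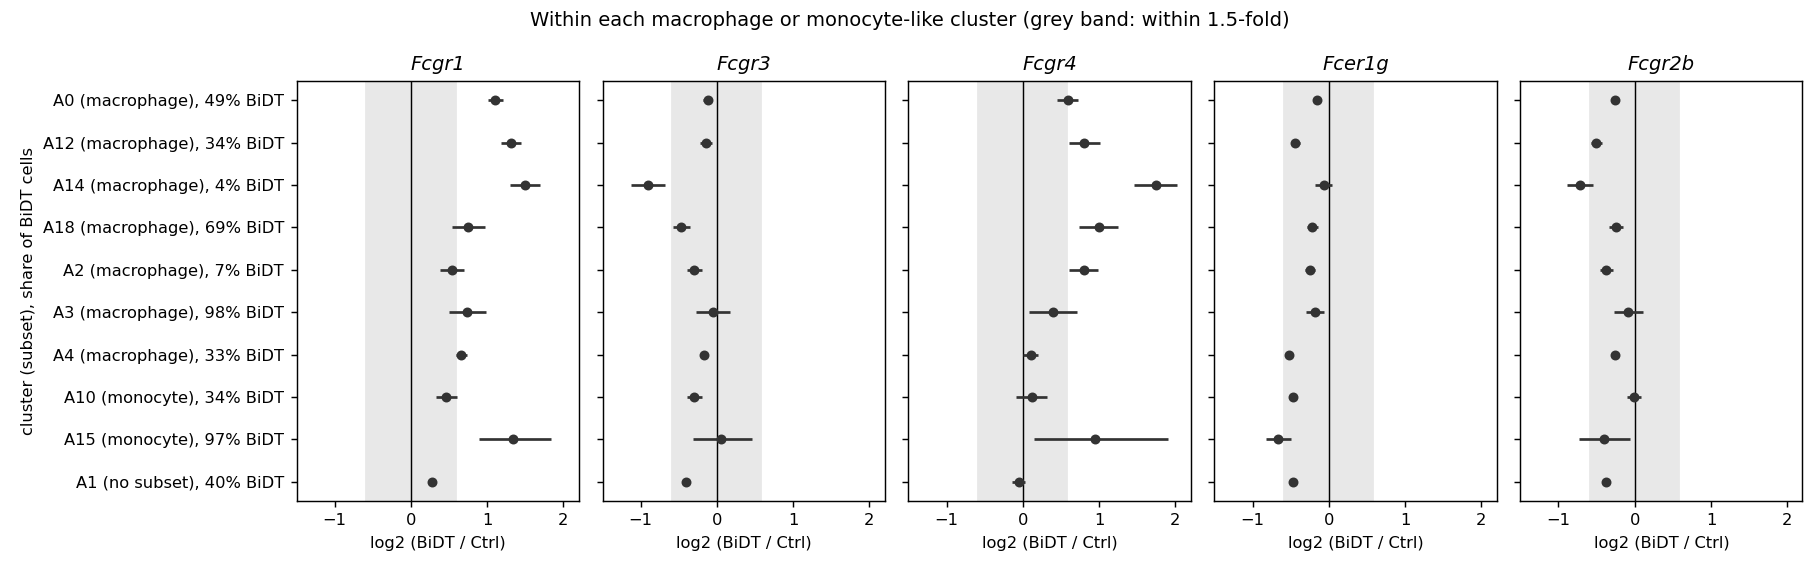
Log2 of the BiDT level over the Ctrl level within each of the 10 macrophage or monocyte-like clusters, with the share of cluster cells from BiDT beside its name; bars are 95% counting intervals and the grey band is within 1.5-fold. Fcgr1 lies right of 0 in every cluster (0.27 to 1.499), and the wide bars belong to clusters with few cells in 1 library.

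Neutrophil-like cells, 776 in Ctrl and 1822 in BiDT, had more Fcgr1 and less Fcer1g in BiDT, with Fcgr3 and Fcgr4 within 1.5-fold. Fcgr1 went from 58.7 CPM (48.4 to 70.6) to 172 CPM (159 to 184), a log2 ratio of 1.55 (1.26 to 1.85). It stood at 7.35 and 8.24 times the fibroblast or tumour-like level, and the part of free RNA was not tested. Fcer1g went from 1739 to 1056 CPM, a log2 ratio of -0.72 (-0.78 to -0.66). Fcgr2b had 456 and 305 CPM, a log2 ratio of -0.58 (-0.71 to -0.46) that misses the threshold and passes it under 5 of 11 alternatives. Fcgr3 and Fcgr4, the receptors with their highest levels in these cells, had log2 ratios of -0.14 and -0.12. Hence 1 member was higher and 1 lower, where 11.9% and 6.6% of 7733 genes were. Summed macrophage markers in these cells (8 of 8 detected) were 1232 CPM in Ctrl and 1370.5 CPM in BiDT, and summed neutrophil markers (5 of 5 detected) were 19373.5 and 12857 CPM. Summed B or plasma cell markers were 5.19 CPM in Ctrl (1 of 4 detected) and 146 CPM in BiDT (4 of 4). Their part in the result was not tested.

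NK-like cells, 1204 in Ctrl and 5216 in BiDT, carried the pair that textbook NK cells use, Fcgr3 with its gamma chain. Fcer1g went from 1586 CPM (1555 to 1617) to 1052 CPM (1038 to 1066), a log2 ratio of -0.59 (-0.63 to -0.56), just past 1.5-fold. Fcgr3 went from 83.6 CPM (76.6 to 91.0) to 48.2 CPM (45.2 to 51.3), a log2 ratio of -0.79 (-0.95 to -0.64). Its thinned share was 6.31% in Ctrl and 4.12% in BiDT, against 2.44% and 2.50% in fibroblast or tumour-like cells and 3.25% and 2.24% in CD8 T-like cells. Fcgr1, Fcgr4 and Fcgr2b in NK-like cells did not lie above the level in fibroblast or tumour-like cells in either library and are read as background. In NK-like cells 14.3% of genes were higher and 5.09% lower.

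The mix of NK-like clusters differed between the 2 libraries. Cluster L4 held 42.5% of these cells in Ctrl and 16.6% in BiDT. Clusters L1 and L3 held 17.2% and 13.1% in Ctrl, and 33.1% and 25.9% in BiDT. Fcer1g was below 0 in 5 of 5 NK-like clusters, at -0.59 to -0.24, and past 1.5-fold in 1 of them. With clusters weighted alike its log2 ratio was -0.48, within 1.5-fold, and that of Fcgr3 was -0.69. Fcer1g was also within 1.5-fold when cells were gated on their own markers (-0.577) and with Malat1 at 1% or less (-0.54). It was past 1.5-fold under the other alternatives. The partner adaptor Tyrobp, which serves other NK receptors, stood at 943 and 555 CPM in these cells, with a log2 ratio of -0.77. Summed macrophage markers in NK-like cells (8 of 8 detected) were 252 and 283 CPM, and their part in the result was not tested.

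Dendritic cells divided by subset. Over all DC-like cells, 2148 in Ctrl and 894 in BiDT, Fcgr1 went from 72.0 to 136 CPM, a log2 ratio of 0.91 (0.73 to 1.09), and the other 4 members were within 1.5-fold. Gating cells on their own markers gave 0.34 for Fcgr1, within 1.5-fold, and leaving out clusters of 1 library gave 0.66. Cluster D1 held 19.8% of the Ctrl and 5.82% of the BiDT cells of the class, and D5 held 7.36% and 18.5%. In DC-like cells 12% of genes were higher and 6.24% lower. Fcgr2b had 250.4 and 260.3 CPM, and its log2 ratio of 0.06 changed sign with the clustering, to -0.53 at a Leiden resolution of 0.5. That level hid opposite differences in the subsets.

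In type 1 conventional dendritic (cDC1-like) cells, which cross-present antigen, Fcgr2b went from 178 CPM (151 to 209) to 292 CPM (233 to 362), a log2 ratio of 0.72 (0.31 to 1.11). The values rest on 149 UMIs in 153 Ctrl cells and 83 UMIs in 78 BiDT cells. Fcgr3 in these cells had 86.0 and 45.8 CPM, from 72 and 13 UMIs, and in BiDT did not lie above the fibroblast or tumour-like level of 26.9 CPM. Fcgr4, from 23 and 12 UMIs, had a fold of 1.54 with an interval that holds 0. Among cDC1-like genes 10.5% were higher and 15.7% lower. In cDC2-like cells Fcgr2b went from 317 to 439 CPM, a log2 ratio of 0.47 (0.28 to 0.66), and Fcgr1 from 123 to 186 CPM, a log2 ratio of 0.60 (0.30 to 0.91), where 8.07% of genes were higher and 9.47% lower. That Fcgr1 value was within 1.5-fold under TMM scaling (0.55), after thinning (0.57), as a mean of the cells' own CPM (0.58) and with clusters weighted alike (0.58). Fcgr1 in cDC2-like cells stood at 15.4 and 8.95 times the fibroblast or tumour-like level, and the part of free RNA was not tested.

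In migratory dendritic-like cells, which carry Ccr7 and travel to lymph nodes, the direction of Fcgr2b was the reverse. It went from 195 CPM (180.2 to 210) to 120 CPM (98.6 to 144), a log2 ratio of -0.70 (-1.002 to -0.41). Fcgr1 went from 24.3 to 73.8 CPM, a log2 ratio of 1.60 (1.12 to 2.08). These Fcgr1 levels were 3.04 and 3.54 times those in fibroblast or tumour-like cells, where Fcgr1 itself had a log2 ratio of 1.38. The part of free RNA in the Fcgr1 value was not tested. The log2 ratio of Fcgr2b was below 0 in each of the 3 migratory clusters, at -0.89 in D4, -0.47 in D5, whose interval holds 0, and -1.21 in D6. Over 11 alternatives its log2 ratio ran from -1.31 to -0.52, and it was within 1.5-fold after thinning to 1000 UMIs, at -0.55, and as a mean of the cells' own CPM, at -0.52. Fcgr4 in migratory cells, from 30 and 21 UMIs, did not lie above the fibroblast or tumour-like level. In these cells 15.3% of genes were higher and 8.5% lower. In the dendritic cells of no assigned subset Fcgr1 had a log2 ratio of 1.07 (0.80 to 1.33), and Fcgr4, from 123 and 17 UMIs, -0.69 (-1.52 to 0.04). In BiDT that Fcgr4 level, 19.1 CPM, did not lie above the fibroblast or tumour-like level of 16.7 CPM. The other members had log2 ratios of at most 0.22 in size, where 17.2% of genes were higher and 11.8% lower. Summed macrophage markers over all DC-like cells (8 of 8 detected) were 519 CPM in Ctrl and 654 CPM in BiDT, and their part in these differences was not tested.

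In CD8 T-like cells Fcgr1 had 8.33 and 17.4 CPM, Fcgr4 5.95 and 8.70 CPM and Fcgr2b 59.0 and 35.8 CPM, near the levels in fibroblast or tumour-like cells. In gamma delta T-like cells, 185 in Ctrl and 96 in BiDT, Fcgr2b had 195 and 93.8 CPM from 97 and 19 UMIs, and Fcgr3 had 106 and 29.6 CPM from 53 and 6 UMIs, the last not above the fibroblast or tumour-like level. Fcgr2b had 116 and 74.3 CPM in CD4 conventional T-like cells and 93.2 and 63.4 CPM in regulatory T-like cells, the last not above that level. B-like, plasmacytoid dendritic-like and osteoclast-like cells had under 50 cells in at least 1 library and were not compared.

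The ratio of activating receptor UMIs (Fcgr1, Fcgr3 and Fcgr4 summed) to Fcgr2b UMIs within a cell group does not depend on scaling. In macrophage or monocyte-like cells it was 0.962 in Ctrl and 1.63 in BiDT, a log2 difference of 0.76 (0.74 to 0.78). Taken singly, the log2 difference was 1.78 for Fcgr1 over Fcgr2b, 1.36 for Fcgr4 over Fcgr2b and 0.09 (0.06 to 0.11) for Fcgr3 over Fcgr2b, beside a log2 ratio of -0.52 for the level of Fcgr2b itself. For the summed receptors it was 0.81 in macrophage-like cells, 0.63 in monocyte-like cells and 0.24 in A1. Without A15 the monocyte-like value was -0.03. Over the whole class it was 0.31 without clusters of 1 library and 0.47 with clusters weighted alike. Within clusters it was above 0 in 9 of 10, past 1.5-fold in 3, and its interval held 0 in A10.

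Neutrophil-like cells had the highest ratio in both libraries, 2.85 in Ctrl and 4.27 in BiDT, a log2 difference of 0.58 (0.44 to 0.72). Among dendritic cells the ratio went in opposite directions. It was 0.548 and 1.36 in migratory cells, a log2 difference of 1.31 (0.91 to 1.71), and 0.779 and 0.398 in cDC1-like cells, a log2 difference of -0.97 (-1.65 to -0.29). In cDC2-like cells it was 1.15 and 1.04, with an interval that holds 0 (-0.41 to 0.12). The ratio in the reference cells for free RNA differed in the same direction as in phagocytes. In fibroblast or tumour-like cells it was 0.834 in Ctrl and 1.504 in BiDT, and in CD8 T-like cells 0.726 and 1.31. Levels of Fcgr2b in migratory cells were 3.98 and 2.79 times those in fibroblast or tumour-like cells, and the part of free RNA in the migratory value was not tested. In cDC1-like cells of BiDT, Fcgr1 (28.2 CPM) and Fcgr3 (45.8 CPM) did not lie above the fibroblast or tumour-like levels of 20.8 and 26.9 CPM. Fcgr4 and Fcgr2b did, and the part of free RNA in the cDC1-like ratio was not tested.

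**Figure D4:**
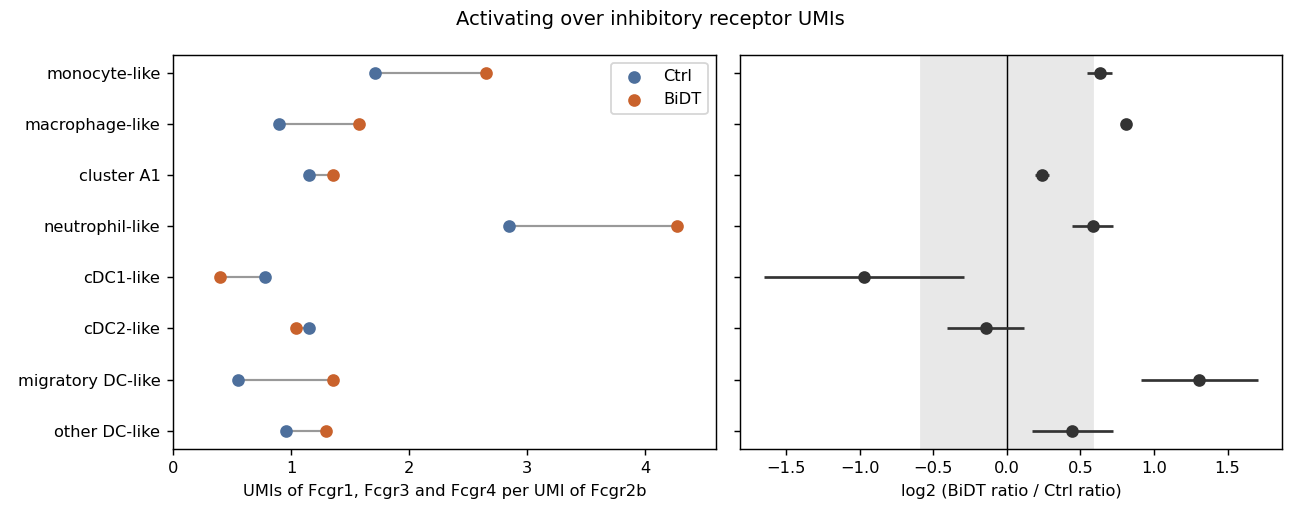
Left, UMIs of Fcgr1, Fcgr3 and Fcgr4 per UMI of Fcgr2b in each cell group, Ctrl in blue and BiDT in orange; right, log2 of the BiDT ratio over the Ctrl ratio with 95% counting intervals and a grey band within 1.5-fold. Neutrophil-like cells have the highest ratios (2.85 and 4.27), and cDC1-like cells alone have an interval entirely below 0.

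Single cells showed the opposed receptors together and apart. Of macrophage or monocyte-like cells thinned to 1000 UMIs, 31.2% of Ctrl cells and 25.4% of BiDT cells had UMIs of Fcgr2b and of at least 1 activating receptor. Independent detection would give 29.4% and 23.8%. Cells with an activating receptor and no Fcgr2b UMI made up 21.2% of Ctrl (20.6 to 21.7) and 30.3% of BiDT (29.6 to 30.96). Cells with Fcgr2b alone made up 24.98% (24.4 to 25.6) and 17.4% (16.8 to 17.9). Independent detection would give 22.9% and 31.9% for activating receptors without Fcgr2b, and 26.8% and 19.0% for Fcgr2b alone. The shares thus lay near those that follow from how often each kind was detected. At this depth a missing UMI does not show that a cell lacks the receptor. In neutrophil-like cells the activating-only share was 43.6% in Ctrl and 50.2% in BiDT, and the Fcgr2b-only share 11.1% and 6.92%. Independent detection would give 43.6% and 50.6%, and 11.1% and 7.35%.

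Across the 10 macrophage or monocyte-like clusters, levels of the members were set beside a list of 128 interferon-responsive genes that was chosen with earlier results of these data known. On log scales the correlation with the list's share of UMIs was 0.79 in Ctrl and 0.75 in BiDT for Fcgr1, 0.66 and 0.40 for Fcgr4, 0.65 and 0.26 for Fcer1g, -0.17 and -0.27 for Fcgr3, and -0.48 and -0.64 for Fcgr2b. Each value describes 10 points that share a library and its depth. In Ctrl the list took 1.86% of UMIs in A14 and 5.34% in A3, where Fcgr1 stood at 142 and 435 CPM. In BiDT it took 4.08% in A2 and 10.95% in A15, where Fcgr1 stood at 236 and 637 CPM.

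Genes of the pathway around the receptors were also read in macrophage or monocyte-like cells, where 18.2% of the genes tested were higher and 10.5% lower. Of 16 activating signalling genes 2 were higher and 0 lower, with a median log2 ratio of 0.29 against 0.08 over all genes. Among them was Vav3, a signalling adaptor and exchange factor, from 57.4 to 113 CPM (0.97). Syk, the kinase that the gamma chain recruits, had 193 and 230.0 CPM (0.25). Of 16 inhibitory signalling genes and receptors 3 were higher and 1 lower, with a median of 0.26. Higher were the inhibitory receptors Cd300lf, from 197 to 456 CPM (1.21), and Cd300a, from 59.8 to 121 CPM (1.02), and the ubiquitin ligase gene Cblb, from 33.9 to 65.5 CPM (0.95). The inhibitory sialic acid receptor Siglece was lower, from 8.75 to 5.62 CPM (-0.64), and Inpp5d, the phosphatase gene downstream of Fcgr2b, had 170 and 226 CPM (0.41). None of 6 phagocyte oxidase genes, which make the oxidative burst that Fc receptors can trigger, was past 1.5-fold.

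Among other receptors and adaptors, Trim21, which encodes a receptor for antibody inside the cell, went from 5.93 to 22.3 CPM (1.91). It was also higher in DC-like (0.96), neutrophil-like (1.22) and NK-like cells (0.93). Of the 10 other Fc receptors listed 5 had at least 50 UMIs, and 2 of these were higher, Trim21 and Fcrl5. Of 5 measured receptors that use the gamma chain 2 were higher, the C-type lectin Clec4d, from 340.5 to 526 CPM (0.63), and the NK receptor Ncr1. Of 3 other adaptors Cd247 was higher, and Tyrobp stood at 974 and 671 CPM (-0.54). Fcrl5, Ncr1 and Cd247 belong to B cells, NK cells and T or NK cells, and their levels here were at most 4.75 CPM. Beside them, summed markers in these cells went from 18.7 to 48.1 CPM for T cells (4 of 4 detected), from 4.45 to 19.9 CPM for NK cells (3 of 3) and from 20.2 to 28.2 CPM for B or plasma cells (4 of 4), and their part in the result was not tested.

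**Figure D5:**
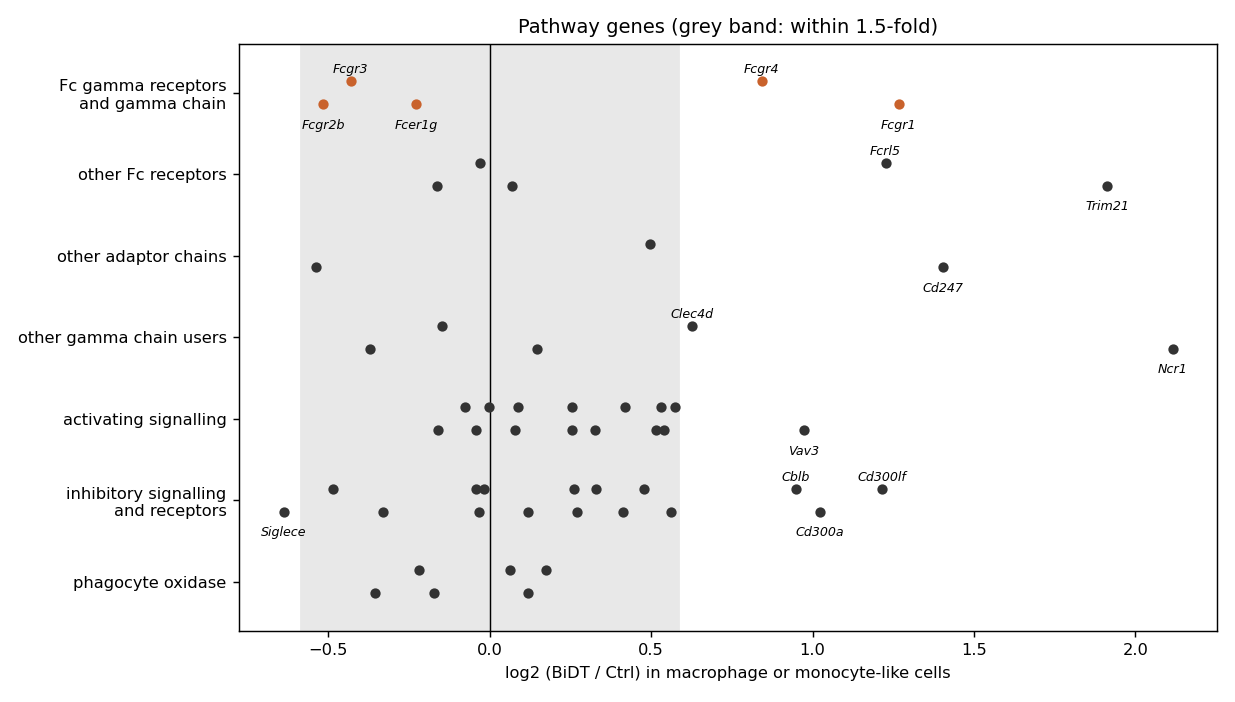
Log2 of the BiDT level over the Ctrl level in macrophage or monocyte-like cells for the 5 members (orange) and for measured genes of 6 pathway lists (black, 1 point a gene, 1 gene not shown); the grey band is within 1.5-fold, and plotted genes outside it are named. Fcgr1 (1.27) and Fcgr4 (0.84) lie outside the band, and all 6 oxidase genes lie inside it.

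Levels over 14 cell groups in 2 libraries (28 points) were used to find the genes most like each member. Fcgr1 was most like Ms4a6c (Pearson r 0.95), followed by Ms4a6d, Zeb2os, Ccdc71l and Milr1. Fcgr2b was most like the lysosomal membrane gene Cd68 (0.95), followed by Egr2, Pid1, Cd300c2 and P2ry6. Fcgr3 was most like the integrin gene Itgam (0.97), followed by Cd14, Prdx5, Tlr2 and Pilrb2, and Fcgr4 was most like the hexokinase gene Hk3 (0.95), followed by Sdcbp, Cyp4f18, Cd300lf and Gla. Fcer1g was most like the adaptor Tyrobp (0.95), followed by Rnf130, Prdx5, Adssl1 and Pilrb1. Among the members the correlation was highest for Fcgr3 with Fcgr4 (0.91) and lowest for Fcer1g with Fcgr4 and with Fcgr1 (both 0.72). The points share libraries, depth and free RNA, and reads of the antisense gene Zeb2os may not be told apart from those of Zeb2 without strand.

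Fcgr2b and Fcgr3 are similar in sequence, which could split or mix their reads. In the last 600 bases of annotated transcripts (GENCODE M21), 145 of 2900 stretches of 31 bases in Fcgr2b (5%) were also found in Fcgr3 transcripts, and 5 of 1108 in Fcgr3 (0.451%) were also found in Fcgr2b transcripts. No other pair of members shared such a stretch there. The sources used here do not say how reads that match both genes were counted.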

How the data were processed

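Single-cell 3' libraries of 2 groups, Ctrl and BiDT, 1 library each of 5 pooled biological replicates, were measured with a 10x Genomics workflow per the labels' protocols. The authors deposited matrices of UMI counts for each gene in each barcode, not normalized, made with Cell Ranger 7.1.0 on GRCm39 per the submitters' processing notes. The barcodes are 3 joined blocks, a form that Cell Ranger does not write, and the cause was not tested. How the reads became counts affects genes with similar sequence, as described for Fcgr2b and Fcgr3.

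The filter required at least 300 genes, at least 500 UMIs and a mitochondrial share of 10% or less. Simulated doublets scored each cell within its library, and cells with a score of at least 0.15 were removed (1740 in Ctrl, 1573 in BiDT). Of 34310 Ctrl barcodes 30867 cells remained, and of 34996 BiDT barcodes 32850. Total UMIs were 211047063 and 130313537 over all barcodes. Clusters were made over both libraries from 3000 variable genes, 30 principal components, 15 neighbours and the Leiden method at resolution 1, without the members, the interferon-responsive list or pathway genes other than Ncr1, Sirpa, Fcmr and Lat. They were named from fixed markers. Macrophage or monocyte-like clusters matched best by the general phagocyte markers were given no subset, a choice made after values had been seen. Of 63717 cells, 9727 (15.3%) were left out of or lay near the cut of a gate on each cell's own markers, which served as an alternative. Unnamed clusters held 938 Ctrl and 1889 BiDT cells and entered no group.

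UMIs were summed per cell group and library and divided by the group's total. Level intervals are exact Poisson, shares have exact Clopper-Pearson intervals, log2 ratios have conditional binomial intervals, and ratios of ratios use Poisson error, all at 95%. UMI intervals cover counting error, not animals. Shares were computed after thinning each cell to 1000 UMIs, which left out 0 cells. Groups needed at least 50 cells in both libraries, and genes at least 50 UMIs over both. The calculations were tested on simulated data. The members, gene lists and markers were chosen with earlier results of these data known. Named genes were the 5 members, at most 4 genes per pathway list past 1.5-fold and furthest from 0 in macrophage or monocyte-like cells, and the 5 genes most like each member by correlation of log2(CPM + 10) among genes with at least 500 UMIs. Syk, Inpp5d, Tyrobp and the levels of Trim21 in other cells were named besides, and 1 gene of the activating signalling list is counted but not reported here. Software was Python 3.11.15, numpy 2.4.6, pandas 2.3.3, scipy 1.17.1, scikit-learn 1.9.0, igraph 0.11.9 and leidenalg 0.10.2.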

Additional observations from a re-analysis of the deposited data

Results flagged for a closer look

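The 7 values here were taken up because cell groups moved in opposite directions between the same 2 libraries. With 1 library per group the differences between cell groups were not tested. The log2 ratio of Fcgr2b, BiDT over Ctrl, was 0.72 in cDC1-like cells and -0.70 in migratory dendritic-like cells, and their counting intervals do not overlap. It was -0.69 in NK-like cells, where Fcgr2b lies at the level of free RNA. The log2 difference of the ratio of activating receptors to Fcgr2b was -0.97 in cDC1-like cells, against 0.81 in macrophage-like, 0.63 in monocyte-like and 1.31 in migratory dendritic-like cells. The cDC1-like values rest on 149 and 83 UMIs of Fcgr2b in 153 and 78 cells. In BiDT, Fcgr1 and Fcgr3 in these cells did not lie above the fibroblast or tumour-like level.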

How the results depend on the processing

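Unless another group is named, values are for macrophage or monocyte-like cells, as log2 ratios of BiDT over Ctrl, in the order Fcgr1, Fcgr4, Fcgr3, Fcer1g, Fcgr2b unless named. Of 141 alternative values of the main results, 82 stayed within counting error or kept their count, 59 moved beyond it and 0 called values changed sign. Of 1157 values for the other cell groups, 955 stayed, 201 moved and 1 called value changed sign. That was the activating over inhibitory ratio in monocyte-like cells, which was 0.63 and became -0.031 without cluster A15. Values within 1.5-fold that changed sign are counted as stayed or moved. Fcgr2b in DC-like cells was such a value, at 0.06 and, at a Leiden resolution of 0.5, -0.53. TMM scaling gave 1.08, 0.65, -0.62, -0.42 and -0.70, with 2 members lower. Thinned cells gave 1.03, 0.64, -0.49, -0.33 and -0.54, and 0.68 for the activating over inhibitory ratio. The mean of the cells' own CPM gave 1.08, 0.67, -0.50, -0.32 and -0.53, with a ratio of 0.69. A gate on each cell's own markers gave 1.31, 0.91, -0.38, -0.19 and -0.47, and for shares of cells -0.34 for Fcgr3 and -0.16 for Fcer1g. Keeping cells with Malat1 at 1% or less gave 1.31, 0.91, -0.36, -0.25 and -0.50, a ratio of 0.81, and for shares -0.34 for Fcgr3 and -0.23 for Fcer1g. At most 5% mitochondrial UMIs gave 1.24 for Fcgr1 and -0.54 for Fcgr2b. Shares without thinning gave 0.21, 0.10, -0.43, -0.16 and -0.34. The next 2 alternatives were chosen after seeing the data. Without clusters at 90% or more of 1 library the values were 0.53, 0.13, -0.39, -0.44 and -0.38, the ratio 0.31, those for shares 0.37, 0.096, -0.33, -0.26 and -0.27, and 0 members were higher. With clusters weighted alike they were 0.75, 0.47, -0.27, -0.34 and -0.33, the ratio 0.47, and 1 member was higher. No share of all genes stands beside the counts of members under these 2 alternatives. Removing no doublets and Leiden resolutions of 0.5 and 2 moved none of these values. At least 1000 UMIs per cell left out 0 cells, so it could not move any value. TMM scaling could not move the activating over inhibitory ratio. Leaving out clusters of 1 library could not move groups that hold none. Such values are counted among those that stayed. Except for the 2 alternatives on clusters, whose construction changes the mix of cells, the cause of the changes was not tested. No paired analysis was possible because each group is 1 library. Depth limits the small groups, such as cDC1-like cells, where single members rest on 8 to 94 UMIs in BiDT, and no interval covers the spread between animals.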
